A study of Rattus norvegicus with 65 samples.

Results

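The core cardiac transcription factors are the DNA-binding regulators, and 1 coactivator, that together set the gene program of heart muscle. The 10 described here are Nkx2-5, Gata4, Gata6, Tbx5, Tbx20, Hand2, Mef2a, Mef2c, Srf and Myocd. They were chosen by symbol and by no rule on their values, but with earlier results of these data known. All 10 of 10 were found among the 14554 genes measured. Their transcripts were counted by RNA sequencing in primary cardiomyocytes of newborn rats in 65 libraries of 10 groups. Wells received 10 mM 5-fluorouracil (5FU), 2.5 mM acetaminophen (Ace) or 1.25 µM doxorubicin (Dox) for 6 or 24 hours. DMSO1, at 1% DMSO, was the control for 5FU, and DMSO2, at 0.25% DMSO, was the control for both Ace and Dox. At 6 hours there were 6 libraries of DMSO1, 6 of 5FU, 7 of DMSO2, 6 of Ace and 7 of Dox, and at 24 hours 6, 6, 7, 7 and 7. The rats carried no labelled genotype or transgene. All wells were serum starved before exposure and were seeded from 1 mixture of cells from 3 litters, so libraries are parallel cultures and not animals, and every p-value measures the spread between such cultures. 5FU blocks thymidylate synthesis, Ace is an analgesic that is toxic to the liver at high doses, and Dox is an anthracycline that poisons topoisomerase II.

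These factors bind short DNA elements near the genes of the sarcomere, the ion channels and the natriuretic peptides, and they bind one another on shared enhancers. Nkx2-5 is a homeodomain protein, Gata4 and Gata6 are zinc-finger proteins, Tbx5 and Tbx20 carry T-boxes, and Hand2 is a basic helix-loop-helix protein. Mef2a and Mef2c are MADS-box proteins that read MEF2 sites. Srf is the MADS-box protein that reads CArG boxes, and Myocd (myocardin) is a coactivator that works through Srf without binding DNA itself. In mice, loss of Nkx2-5, Gata4, Tbx5, Tbx20, Hand2, Mef2c, Srf or Myocd disturbs heart formation, and the factors remain in use in the postnatal heart.

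RefSeq promoters on the rat assembly GRCr8 were found for 7 of the 10 genes, namely Nkx2-5, Gata6, Tbx5, Tbx20, Hand2, Mef2a and Srf. The first start listed for each gene was used, and other starts were not searched. For Nkx2-5, Tbx5 and Mef2a the whole window before this start lay inside the annotated span of the gene. The 250 bases before the annotated start were searched on both strands for the elements that the factors themselves read, which are the CArG box and the MEF2 site by name, the GATA site by name (6 letters around GATA), the E-box as CANNTG, a T-box site as GGTGTGA and an NKX2-5 site as TNAAGTG. The sequences below belong to Srf and Mef2a, which hold the elements of their own families, and to Nkx2-5, which had the largest difference under Dox. Capitals mark CArG boxes in Srf and the MEF2 site in Mef2a. No capitals stand in the Nkx2-5 sequence.
Srf, chr9:21923826-21924075, plus strand: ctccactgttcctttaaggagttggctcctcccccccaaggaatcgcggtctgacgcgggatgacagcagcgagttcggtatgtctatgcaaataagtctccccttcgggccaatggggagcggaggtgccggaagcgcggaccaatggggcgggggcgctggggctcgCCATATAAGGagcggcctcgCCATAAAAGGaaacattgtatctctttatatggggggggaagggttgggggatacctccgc
Mef2a, chr1:130392163-130392412, minus strand: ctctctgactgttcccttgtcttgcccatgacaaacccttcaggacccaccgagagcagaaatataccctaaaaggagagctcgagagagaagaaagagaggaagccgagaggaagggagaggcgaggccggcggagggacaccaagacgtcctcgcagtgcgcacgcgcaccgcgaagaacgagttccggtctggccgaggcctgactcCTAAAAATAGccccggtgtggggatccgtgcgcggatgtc
Nkx2-5, chr10:16848350-16848599, plus strand: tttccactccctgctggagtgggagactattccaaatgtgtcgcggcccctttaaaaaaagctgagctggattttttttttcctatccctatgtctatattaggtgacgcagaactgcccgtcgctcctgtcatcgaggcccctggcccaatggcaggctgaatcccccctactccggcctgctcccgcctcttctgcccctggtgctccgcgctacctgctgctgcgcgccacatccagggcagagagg

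The Srf sequence held 2 CArG boxes, CCATATAAGG at 81 and CCATAAAAGG at 61 bases before the start. A CArG box stood in 1.5% of the 33469 rat promoter windows of the same length. The Mef2a sequence held a MEF2 site, CTAAAAATAG, 40 bases before its start, and 2.96% of all windows held one. GATA sites were matched at 225 bases before the start of Tbx5 and at 172 bases before that of Hand2, against 27% of all windows. E-boxes, which stood in 65.5% of all windows, were matched in Nkx2-5, Tbx5 and Hand2. No searched element was matched in the windows of Gata6 and Tbx20, and neither the T-box site, held by 3.22% of all windows, nor the NKX2-5 site, held by 9.89%, was matched in any of the 7. These matches describe letters in 250 bases before 1 start per gene and carry no statement about other starts or about binding.

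Library totals ran from 14332827 to 25738297 estimated counts. Of the cardiomyocyte markers, 9 of 10 were in the table (Ttn was not among the genes measured), and their summed level ran from 26300 to 71100 CPM (counts relative to the TMM-scaled library total) over the 65 libraries. Markers of other heart cells were present in every group. The sum of the 10 fibroblast markers ran from 2520 to 21400 CPM, and that of 7 of 8 endothelial markers from 21 to 339 CPM, with Pecam1 not among the genes measured. Of the defining endothelial markers Cldn5 was at 0 in 3 of 6 5FU libraries at 6 hours and in 5 of 7 Dox libraries at 24 hours. In a bulk culture, fewer cells of a type and less RNA per cell cannot be told apart. Several libraries stood apart. DMSO1 library 3 at 6 hours lay within or below the range of the DMSO2 libraries in several genes given with the controls, Dox library 7 at 6 hours lay apart from the other 6 in Nppb, and Dox library 7 at 24 hours had the largest total and a summed smooth muscle level of 379 CPM against 1330 to 1690 in the other 6. Library numbers here are names only.

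Across the 10 groups the mean level of a factor varied least for Srf and most for Nkx2-5. The ratio of the highest to the lowest group mean was 1.76 for Srf, 1.93 for Mef2a, 2.21 for Gata4, 2.93 for Hand2, 3.51 for Myocd, 3.78 for Gata6, 3.93 for Tbx5, 5.59 for Tbx20, 5.65 for Mef2c and 8.37 for Nkx2-5. A Dox group was lowest for 8 of the 10 factors; the exceptions were Hand2, lowest in 5FU at 6 hours, and Srf, lowest in 5FU at 24 hours. Most neighbours in the order of the group means overlapped, in 76 of 90 neighbouring pairs. For Nkx2-5 the gap fell between 5FU at 6 hours, with libraries from 168 to 237 CPM, and both Dox groups, with none above 42.6 CPM. For Gata6 both Dox groups, with none above 50.8 CPM, lay below all libraries of the other 8 groups, which had at least 103 CPM. Tbx5 had its gap at the top, since 5FU at 24 hours stood alone above the other 9 groups. All 9 neighbouring pairs of Srf overlapped, although groups further apart in the order, such as 5FU and DMSO1 at 24 hours, did not. The biological coefficient of variation between cultures, as fitted across all groups, was 6.05% for Mef2a, 12.9% for Srf and 14.8% for Myocd, and lay between those of Mef2a and Srf for the other 7 factors.

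**Figure D1:**
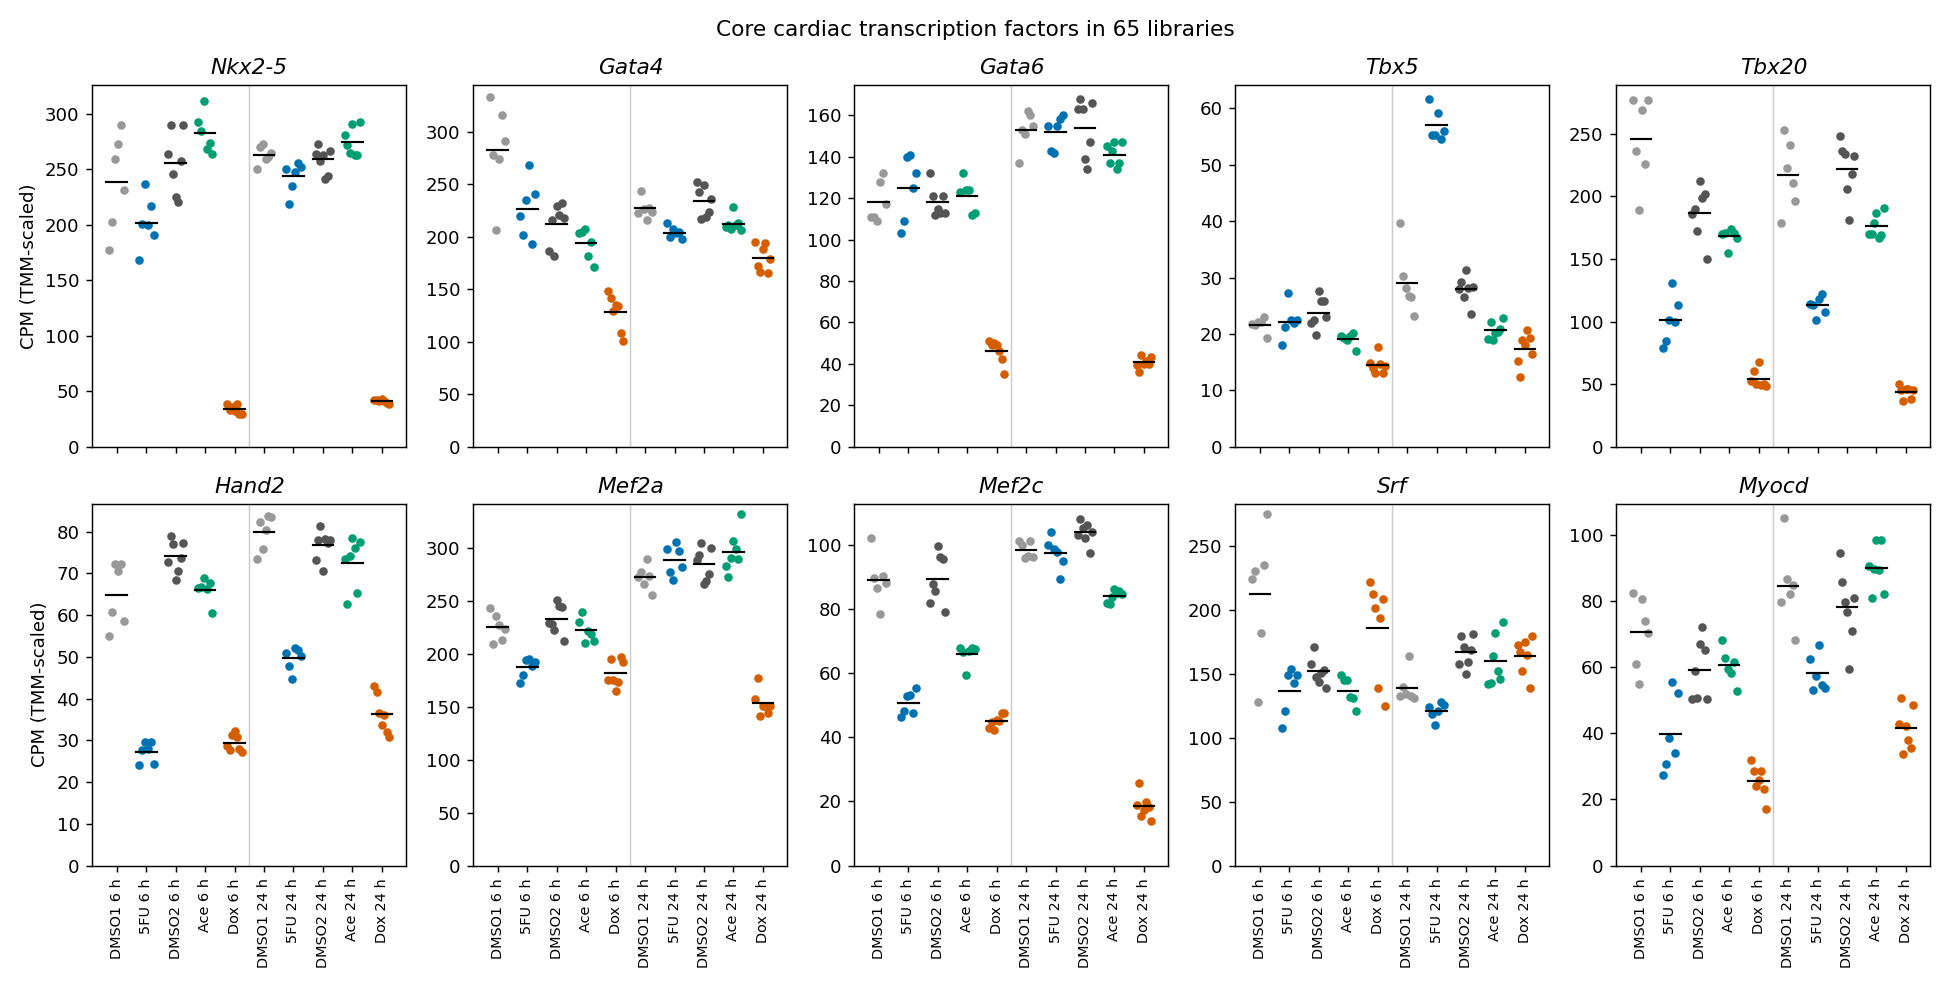
Level of each factor in CPM (TMM-scaled, axes from 0) in every library, by group at 6 hours and 24 hours, with the group mean as a black line. Both Dox groups lie below every library of the other groups for Nkx2-5, Gata6 and Tbx20, while Srf groups next to each other in mean overlap and Tbx5 is highest in 5FU at 24 hours.

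Dox was associated with the broadest differences. Against DMSO2 at 6 hours, 9 of the 10 factors were lower and Srf was higher at a Benjamini-Hochberg FDR below 0.01 (edgeR quasi-likelihood test), when 32.7% of all genes tested were called lower and 31.5% higher. At 24 hours the same 9 factors were lower and Srf did not pass, when 41% of all genes were lower and 40.4% higher. The median log2 fold change of the 10 factors was -1.10 at 6 hours and -0.99 at 24 hours, beside a median of 0.003 over all genes at either time. The libraries of Dox and DMSO2 did not overlap for 9 of the factors at 6 hours or for 9 at 24 hours, beside 42.6% and 68.2% of all genes.

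Nkx2-5, the homeodomain factor of cardiac progenitors and working myocardium, showed the largest fall. At 6 hours its Dox libraries ran from 29.5 to 38.7 CPM with a median of 33, and its DMSO2 libraries from 221 to 290 CPM with a median of 258. At 24 hours the Dox libraries ran from 38.3 to 42.6 CPM, median 41.6, and the DMSO2 libraries from 241 to 273 CPM, median 263. Every Dox library lay far below every control library at both times. The log2 fold change was -2.92 ± 0.076 (SE; FDR 1.3e-41) at 6 hours, where 0.268% of all genes had a lower value, and -2.66 ± 0.074 (FDR 3.6e-41) at 24 hours, where 2.88% did.

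The GATA factors fell by different amounts. Gata4 had Dox libraries from 101 to 148 CPM (median 134) and DMSO2 libraries from 182 to 232 CPM (median 218) at 6 hours. At 24 hours they ran from 165 to 195 CPM (median 179) and from 217 to 252 CPM (median 236). The groups did not overlap at either time, and the log2 fold change was -0.73 ± 0.071 (FDR 5.5e-14) at 6 hours and -0.38 ± 0.071 (FDR 1.9e-06) at 24 hours. Gata6, its close relative, had Dox libraries from 34.9 to 50.8 CPM (median 48.9) and DMSO2 libraries from 112 to 132 CPM (median 115) at 6 hours. At 24 hours they ran from 36.3 to 44.2 CPM (median 40.1) and from 134 to 168 CPM (median 163). These groups stood well apart, with a log2 fold change of -1.36 ± 0.064 (FDR 5.0e-28) at 6 hours and -1.92 ± 0.065 (FDR 1.2e-36) at 24 hours.

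Of the T-box factors, Tbx20 fell the more. Tbx20 has both activating and repressing roles in the myocardium, and its Dox libraries ran from 48.7 to 68.0 CPM (median 50.5) at 6 hours against 150.0 to 212 CPM (median 190.0) in DMSO2. At 24 hours they ran from 36.7 to 50 CPM (median 45.6) against 181 to 248 CPM (median 232). No Dox library reached any control library, and the log2 fold change was -1.79 ± 0.089 (FDR 4.6e-27) at 6 hours and -2.33 ± 0.091 (FDR 1.4e-33) at 24 hours. Tbx5, a partner of Nkx2-5 and Gata4 in atrial and conduction gene programs, was low in CPM throughout. Its Dox libraries ran from 13 to 17.7 CPM (median 14.3) at 6 hours against 19.8 to 27.6 CPM (median 23), and from 12.4 to 20.7 CPM (median 18.1) at 24 hours against 23.5 to 31.3 CPM (median 28.2). The groups did not overlap, and the log2 fold changes of -0.71 ± 0.087 (FDR 9.0e-11) and -0.69 ± 0.086 (FDR 6.4e-11) were close to each other. Hand2, a regulator of ventricular growth, had Dox libraries from 27.2 to 32.3 CPM (median 28.6) at 6 hours against 68.4 to 78.9 CPM (median 73.7). At 24 hours its Dox libraries ran from 30.7 to 43 CPM (median 36.0) against 70.5 to 81.4 CPM (median 78.0). Hand2 groups were also separate, with log2 fold changes of -1.33 ± 0.062 (FDR 2.4e-28) and -1.08 ± 0.062 (FDR 5.1e-25).

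Mef2a and Mef2c fell further at 24 than at 6 hours. Mef2c, needed for looping and for ventricular gene expression, had Dox libraries from 42.3 to 47.5 CPM (median 44.9) at 6 hours against 78.9 to 99.6 CPM (median 87.7) in DMSO2. At 24 hours it had 13.8 to 25.6 CPM (median 18.1) against 97.4 to 108 CPM (median 104). The groups were separate at both times and the log2 fold change went from -0.99 ± 0.062 (FDR 3.1e-22) to -2.50 ± 0.067 (FDR 2.7e-42). Mef2a, the more widely expressed relative, had Dox libraries from 165 to 197 CPM (median 175) at 6 hours against 212 to 251 CPM (median 229). At 24 hours they ran from 141 to 177 CPM (median 151) against 266 to 304 CPM (median 288). Its groups did not overlap either, and its log2 fold change was -0.36 ± 0.047 (FDR 6.1e-10) and then -0.90 ± 0.047 (FDR 1.0e-26).

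Srf and its coactivator went apart. Myocd had Dox libraries from 17 to 31.8 CPM (median 26) at 6 hours against 50.3 to 72 CPM (median 58.7), and from 33.8 to 50.8 CPM (median 42.2) at 24 hours against 59.4 to 94.4 CPM (median 79.7). Its groups did not overlap, with a log2 fold change of -1.21 ± 0.12 (FDR 8.4e-14) at 6 hours and -0.91 ± 0.12 (FDR 1.8e-10) at 24 hours. Srf had Dox libraries from 125 to 222 CPM (median 202) at 6 hours against 139 to 171 CPM (median 151) in DMSO2. The Dox libraries of Srf spread on both sides of the controls, because libraries 4 and 7 had 139 and 125 CPM and the other 5 had 194 to 222 CPM. The log2 fold change of Srf was 0.29 ± 0.10 (FDR 0.0076) at 6 hours. This call was lost when only the compared groups were fitted (FDR 0.021), and when libraries were scaled by their totals alone (0.14, FDR 0.21). That scaling also moved the median of all genes to -0.15 in this comparison. Without Dox library 7, which stood apart, Srf had a log2 fold change of 0.37 (FDR 0.00053) and the other 9 factors remained lower. Its call was lost in 10 of 14 fits that left out 1 library, those without DMSO2 library 1, 3, 4, 5 or 7 or Dox library 1, 2, 3, 5 or 6, with FDR up to 0.029. At 24 hours Srf had 139 to 180.0 CPM (median 167) in Dox and 150.0 to 181 CPM (median 169) in DMSO2, and the log2 fold change was -0.02 with a 95% interval from -0.22 to 0.18.

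Cell type markers moved with the Dox comparison as well. At 6 hours the summed fibroblast markers had a median of 10700 CPM against 14400 CPM in DMSO2, with 6 of 10 lower, and all 7 of 7 endothelial markers were lower. At 24 hours all 10 of 10 fibroblast markers were lower, with sums of 2520 to 4860 CPM against 17000 to 20700 CPM, and all 7 of 7 endothelial markers were lower, with sums of 21 to 46.3 CPM against 257 to 339 CPM. The cardiomyocyte marker sum was higher at 6 hours, with a median of 57700 against 47400 CPM. Its 9 genes were mixed, since 5 passed as higher but 2 as lower. By 24 hours the sum had dropped below the control, with a median of 29400 against 46700 CPM. Of the 9 genes, 6 then passed as lower but 1 as higher. This later sum held opposite moves. Under Dox the median of Nppa was 12200 against 1020 CPM in DMSO2, while that of Myh6 was 1030 against 17900 CPM. The part of these shifts in the values of the 10 factors was not tested. Without Dox library 7 at 24 hours the same 9 factors remained lower, with Nkx2-5 at -2.62 and Mef2c at -2.41 on the log2 scale.

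**Figure D2:**
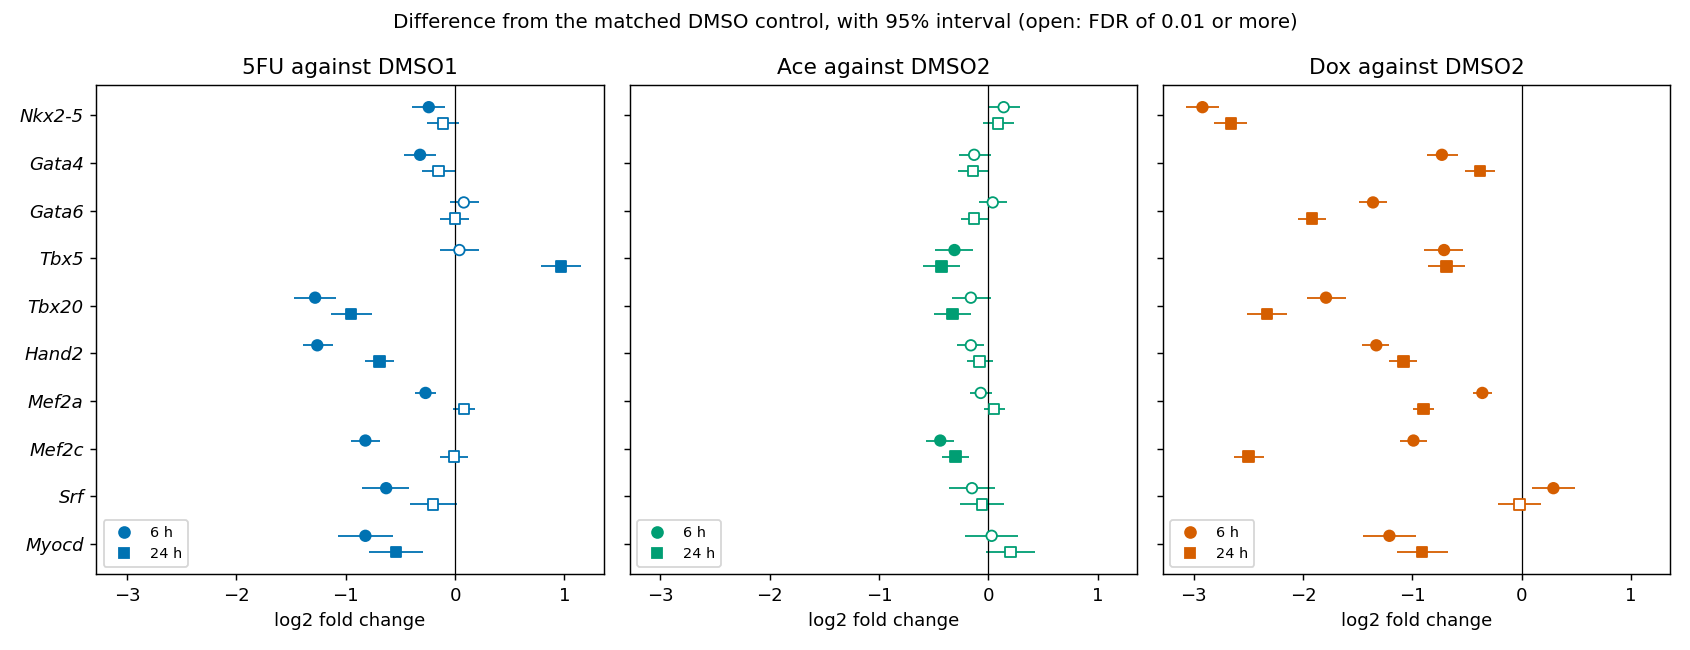
Log2 fold change of each factor against its own DMSO control, with the 95% interval as a bar, for 5FU, Ace and Dox at 6 hours (circles) and 24 hours (squares). Filled symbols have an FDR below 0.01; 9 factors lie left of 0 under Dox at both times, Ace values lie between -0.44 and 0.20, and Tbx5 under 5FU at 24 hours lies at 0.97.

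Under 5FU Tbx20, Hand2 and Myocd were lower than the control at both times, and Tbx5 was higher at 24 hours. Against DMSO1 at 6 hours, 8 of the 10 were lower and Gata6 and Tbx5 did not pass, when 24.5% of all genes were called lower and 23.4% higher. At 24 hours Tbx20, Hand2 and Myocd were lower, Tbx5 was higher and the other 6 did not pass, when 27.8% of all genes were lower and 28% higher. The median log2 fold change of the 10 was -0.48 at 6 hours and -0.13 at 24 hours. The libraries of 5FU and DMSO1 did not overlap for 4 factors at 6 hours and for 6 at 24 hours, beside 28.2% and 42.9% of all genes. Fitting the compared groups only gave 6 called factors at either time, since Gata4 and Nkx2-5 were lost at 6 hours and Gata4 and Srf were added at 24 hours (FDR 0.0024 and 0.0059). In these fits 5301 of all 14554 genes were called at 6 hours and 8137 at 24 hours.

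Hand2 and Tbx20 had the largest falls at 6 hours. Hand2 had 5FU libraries from 24.1 to 29.5 CPM (median 27.8) against 54.9 to 72.3 CPM (median 65.7) in DMSO1, and from 44.7 to 52 CPM (median 50.6) against 73.4 to 83.7 CPM (median 81.4) at 24 hours. Tbx20 had 5FU libraries from 78.6 to 131 CPM (median 100) against 189 to 277 CPM (median 253), and from 101 to 122 CPM (median 113) against 179 to 253 CPM (median 217) at 24 hours. For both genes the groups were separate at both times. The log2 fold change of Hand2 was -1.26 ± 0.067 (FDR 3.4e-24) at 6 hours and -0.69 ± 0.065 (FDR 3.6e-14) at 24 hours. For Tbx20 it was -1.28 ± 0.093 (FDR 1.4e-18) and -0.95 ± 0.093 (FDR 9.3e-14). These 5FU levels of Hand2 and Tbx20 at 6 hours also lay below every DMSO2 library, which had at least 68.4 and 150.0 CPM.

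Mef2c fell at 6 hours and did not pass at 24 hours. Its 5FU libraries ran from 46.3 to 55.2 CPM (median 50.4) at 6 hours against 78.3 to 102 CPM (median 88.9), and from 89.3 to 104 CPM (median 98.0) at 24 hours against 95.9 to 101 CPM (median 98.1). The groups were separate at 6 hours and overlapped at 24 hours. The log2 fold change was -0.82 ± 0.066 (FDR 1.1e-16) and then -0.01 ± 0.065 (FDR 0.86). Mef2a followed with 172 to 195 CPM (median 190.0) against 209 to 243 CPM (median 225) at 6 hours, a log2 fold change of -0.27 ± 0.051 (FDR 6.2e-06), and 0.08 ± 0.050 (FDR 0.15) at 24 hours.

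Tbx5 rose under 5FU. At 6 hours its 5FU libraries ran from 18 to 27.2 CPM (median 22.2) and its DMSO1 libraries from 19.2 to 23 CPM (median 21.9), and they overlapped. At 24 hours the 5FU libraries ran from 54.6 to 61.7 CPM (median 55.6) and the DMSO1 libraries from 23.1 to 39.7 CPM (median 27.4). All 6 5FU libraries lay above every control, and above the libraries of every other group. The log2 fold change was 0.97 ± 0.088 (FDR 7.0e-15), with 97.0% of all genes below it, and it was 1.08 without DMSO1 library 1, the highest control at 39.7 CPM. That library also had the lowest fibroblast marker sum of its group, 10900 against 16600 to 21400 CPM. Its endothelial sum was the lowest as well, 195 against 239 to 278 CPM. The part of these markers in its Tbx5 level was not tested.

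Srf, Gata4, Myocd and Nkx2-5 were also lower under 5FU at 6 hours, with libraries that overlapped those of DMSO1. Srf had 5FU libraries from 108 to 154 CPM (median 146) and DMSO1 libraries from 128 to 275 CPM (median 228), with a log2 fold change of -0.63 ± 0.11 (FDR 1.1e-06). Gata4 had 193 to 268 CPM (median 228) against 206 to 333 CPM (median 285), with -0.32 ± 0.076 (FDR 0.00025). The DMSO1 libraries of both genes were themselves higher than those of DMSO2, so that the 5FU libraries overlapped the DMSO2 libraries, which ran from 139 to 171 CPM for Srf and from 182 to 232 CPM for Gata4. Myocd had 27.4 to 55.6 CPM (median 36.4) against 55 to 82.3 CPM (median 72.1), with -0.82 ± 0.13 (FDR 7.7e-08), and at 24 hours 53.2 to 66.7 CPM (median 56.1) against 68.2 to 105 CPM (median 83.4), with -0.54 ± 0.12 (FDR 0.00012). Nkx2-5 had 168 to 237 CPM (median 201) against 177 to 290.0 CPM (median 245) at 6 hours, with -0.24 ± 0.074 (FDR 0.0045). Its call was lost in 5 of the 12 fits that left out 1 of the 5FU or DMSO1 libraries, those without 5FU library 1 or 6 or DMSO1 library 3, 4 or 5, with FDR up to 0.037. It was also lost, as was that of Gata4, when only the compared groups were fitted (FDR 0.089 and 0.020). Without DMSO1 library 3 the value of Srf was -0.74 and that of Gata4 -0.40. At 24 hours Gata4 had 198 to 213 CPM (median 204) in 5FU against 216 to 244 CPM (median 225), with -0.15 ± 0.076 (FDR 0.081), and Srf had 110.0 to 128 CPM (median 122) against 131 to 164 CPM (median 133), with -0.20 ± 0.11 (FDR 0.11). Neither passed, although the libraries of both genes did not overlap. Gata6, at 0.08 ± 0.067 (FDR 0.29) at 6 hours and -0.00 ± 0.067 (FDR 0.95) at 24 hours, did not pass at either time.

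Fibroblast and endothelial markers moved with 5FU at 24 hours, when 10 of 10 fibroblast markers were lower, with sums of 5780 to 6380 CPM against 10900 to 21400 CPM, and 6 of 7 endothelial markers were lower. The cardiomyocyte markers moved as well at 24 hours, with 4 of 9 lower and 2 higher and sums of 32500 to 35000 CPM against 37900 to 43700 CPM. At 6 hours 2 of 10 fibroblast markers were lower, and of 9 cardiomyocyte markers 2 were higher and 1 lower. The part of these differences in the values of the factors was not tested.

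Ace was associated with few and small differences. Against DMSO2 at 6 hours Tbx5 and Mef2c were lower and the other 8 did not pass, when 15.2% of all genes were called lower and 16.5% higher. At 24 hours Tbx5, Tbx20 and Mef2c were lower and the other 7 did not pass, when 19.1% of all genes were lower and 18.2% higher. No log2 fold change of the 10 factors exceeded 0.44 in size, and their median was -0.14 at 6 hours and -0.10 at 24 hours.

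Mef2c was the most separate under Ace. Its Ace libraries ran from 59.2 to 67.8 CPM (median 67.2) at 6 hours against 78.9 to 99.6 CPM (median 87.7), and from 81.6 to 86.1 CPM (median 84.7) at 24 hours against 97.4 to 108 CPM (median 104). The groups did not overlap, and the log2 fold change was -0.44 ± 0.063 (FDR 5.4e-08) and then -0.30 ± 0.060 (FDR 2.5e-05). Tbx5 had Ace libraries from 17 to 20.2 CPM (median 19.4) at 6 hours against 19.8 to 27.6 CPM (median 23), and from 19 to 22.9 CPM (median 20.4) at 24 hours against 23.5 to 31.3 CPM (median 28.2). Its groups overlapped at 6 hours and were separate at 24 hours, with log2 fold changes of -0.31 ± 0.089 (FDR 0.0029) and -0.43 ± 0.084 (FDR 1.9e-05). The 6-hour call of Tbx5 was lost without Ace library 6 (-0.27, FDR 0.016) and without DMSO2 library 4 or 6. Tbx20 had 167 to 191 CPM (median 170.0) at 24 hours against 181 to 248 CPM (median 232), with -0.33 ± 0.085 (FDR 0.00081) and overlapping groups. Nkx2-5, which had the largest fall under Dox, had Ace libraries from 264 to 312 CPM (median 279) at 6 hours against 221 to 290.0 CPM (median 258), a log2 fold change of 0.14 with a 95% interval from 0.00 to 0.29. At 24 hours all 10 of 10 fibroblast markers were lower under Ace too, with sums of 8380 to 10400 CPM against 17000 to 20700 CPM, as were 5 of 7 endothelial markers, and at 6 hours 6 of 10 fibroblast markers were lower. Of 9 cardiomyocyte markers 2 were lower and 2 higher under Ace at 24 hours, and 0 were called at 6 hours. The part of all these markers in the values of the factors was not tested. The 7 factors that did not pass at 24 hours had log2 fold changes between -0.14 and 0.20.

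The controls differed from each other at 6 hours, and few genes passed between them at 24 hours. DMSO1 was higher than DMSO2 at 6 hours for Gata4 (0.42 ± 0.073, FDR 1.2e-05), Tbx20 (0.39 ± 0.088, FDR 0.00047) and Srf (0.48 ± 0.10, FDR 0.00027), when 9.87% of all genes were called higher and 6.6% lower. These groups overlapped for all 10 factors, when 5.07% of all genes did not overlap, and for Gata4, Tbx20 and Srf only through DMSO1 library 3, which lay within the range of the DMSO2 libraries or, for Srf, below it. That library had 206 CPM of Gata4, 189 CPM of Tbx20 and 128 CPM of Srf, while the other 5 had 274 to 333, 226 to 277 and 182 to 275 CPM. Nppb, which encodes the stretch-responsive natriuretic peptide BNP, split the same libraries, with 30.7 CPM in DMSO1 library 3, 196 to 883 CPM in the other 5, and 28 to 40.2 CPM in the 7 DMSO2 libraries. In the Dox group Nppb was at 27.4 CPM in library 7 and at 196 to 244 CPM in the other 6. Without DMSO1 library 3 the log2 fold changes of Gata4, Tbx20 and Srf were 0.49, 0.46 and 0.59, and Hand2 was called lower as well (-0.22, FDR 0.0058), as it was without DMSO1 library 4 or 5. The call of Srf was lost when only the compared groups were fitted (FDR 0.011). In the same comparison 7 of 10 fibroblast and 5 of 7 endothelial markers were lower in DMSO1 and 4 of 9 cardiomyocyte markers were higher, with summed medians of 10800 against 14400, 170.0 against 242 and 61000 against 47400 CPM, and their part was not tested. The DMSO share and whatever else set the DMSO1 and DMSO2 wells apart cannot be told apart. At 24 hours 0 of the 10 factors passed the edgeR quasi-likelihood test, 1 had an unadjusted p below 0.05 and 0 passed in DESeq2, when 0.433% of all genes were called.

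**Figure D3:**
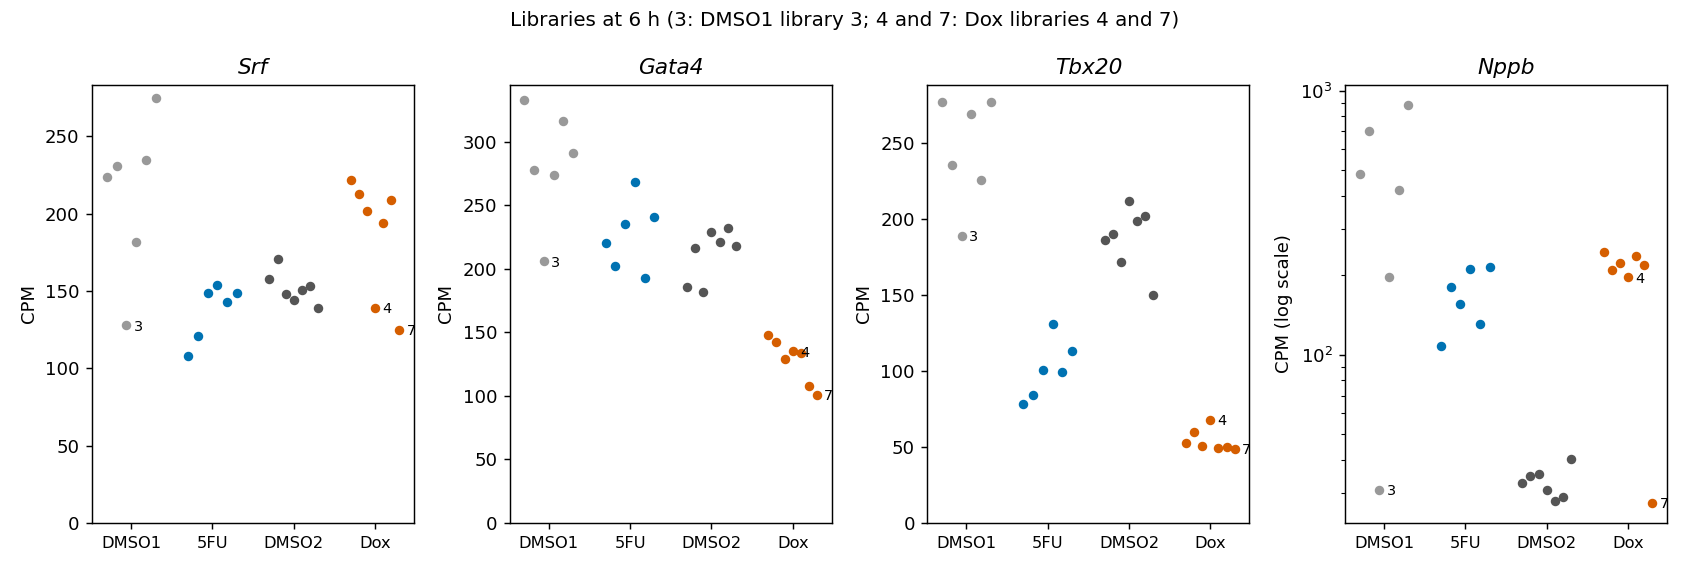
CPM of Srf, Gata4, Tbx20 and Nppb in each library of DMSO1, 5FU, DMSO2 and Dox at 6 hours, with the Nppb axis on a log scale and the others from 0. DMSO1 library 3 sits within the DMSO2 range for Gata4, Tbx20 and Nppb and below it for Srf, and Dox library 7 sits below the other 6 Dox libraries for Nppb and Srf.

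Time in culture also moved the factors in the controls. At 24 against 6 hours, averaged over DMSO1 and DMSO2, 6 factors were higher and Srf was lower, when 32.7% of all genes were called higher and 31.9% lower. The 6 were Gata6 (0.38 ± 0.046, FDR 4.7e-11), Tbx5 (0.33 ± 0.062, FDR 3.6e-06), Myocd (0.33 ± 0.084, FDR 0.00038), Mef2a (0.28 ± 0.034, FDR 6.9e-11), Mef2c (0.18 ± 0.044, FDR 0.00029) and Hand2 (0.17 ± 0.044, FDR 0.00036). Srf had -0.24 ± 0.074 (FDR 0.0029), and its call was lost without DMSO1 library 6 at 6 hours, the highest at 275 CPM. Gata4, Nkx2-5 and Tbx20, at -0.09, 0.08 and 0.03, did not pass. For Srf, Gata4 and Tbx20 the average joined opposite moves. The mean of Srf went from 213 to 139 CPM in DMSO1 but from 152 to 167 CPM in DMSO2. That of Gata4 went from 283 to 227 and from 212 to 234 CPM, and that of Tbx20 from 246 to 217 and from 187 to 222 CPM. Whether the change over time differed between the controls was not tested. Of the markers, 8 of 10 fibroblast and 6 of 7 macrophage genes were higher at 24 hours and 0 were lower. Among 7 endothelial genes 4 were higher and 2 lower, and among 9 cardiomyocyte genes 4 were lower and 1 higher. The part of these markers in the values of the factors over time was not tested. Time and harvest cannot be told apart in this design.

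The drug effects were then compared between the times by testing the difference itself, the 24-hour effect minus the 6-hour effect. For Dox, 6 factors passed, when 64.8% of all genes did. Mef2c (-1.51 ± 0.090, FDR 3.1e-23), Gata6 (-0.57 ± 0.090, FDR 1.1e-07), Tbx20 (-0.55 ± 0.12, FDR 7.6e-05) and Mef2a (-0.54 ± 0.066, FDR 1.0e-10) were further below the control at 24 hours. Gata4 (0.34 ± 0.10, FDR 0.0018) and Hand2 (0.25 ± 0.087, FDR 0.0089) were nearer to it. The call of Hand2 was lost in 13 of 28 fits that left out 1 library, with FDR up to 0.031. These were the fits without DMSO2 library 1, 4 or 6 or Dox library 1, 2 or 5 at 24 hours, and without DMSO2 library 2, 3 or 7 or Dox library 1, 2, 6 or 7 at 6 hours. Scaling by library totals alone moved the median of all genes to 0.27 in this comparison, and Tbx20 (-0.34, FDR 0.012) then no longer passed while Nkx2-5 (0.46, FDR 0.00035) and Myocd (0.50, FDR 0.0084) did. Nkx2-5 (0.26 ± 0.10), Tbx5 (0.02 ± 0.12), Srf (-0.31 ± 0.14) and Myocd (0.30 ± 0.17) did not pass with TMM factors. Srf passed without Dox library 7 at 6 hours (-0.39, FDR 0.0076), and Nkx2-5 without any 1 of 5 libraries, among them Dox library 7 at 24 hours.

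For 5FU, 4 factors had a higher value at 24 hours, when 39.5% of all genes passed in either direction and 2961 of the 14554 as higher. These were Tbx5 (0.93 ± 0.13, FDR 9.3e-09), Mef2c (0.80 ± 0.093, FDR 9.2e-11), Hand2 (0.57 ± 0.093, FDR 6.8e-07) and Mef2a (0.35 ± 0.071, FDR 3.4e-05). Mef2c thus changed in opposite directions in time under the 2 drugs, since its distance from the control grew under Dox and closed under 5FU. Without DMSO1 library 3 at 6 hours Srf (0.55) and Tbx20 (0.40) passed as well. For Ace, 0 of the 10 passed, 0 had an unadjusted p below 0.05 and 0 passed in DESeq2, when 11.6% of all genes passed.

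**Figure D4:**
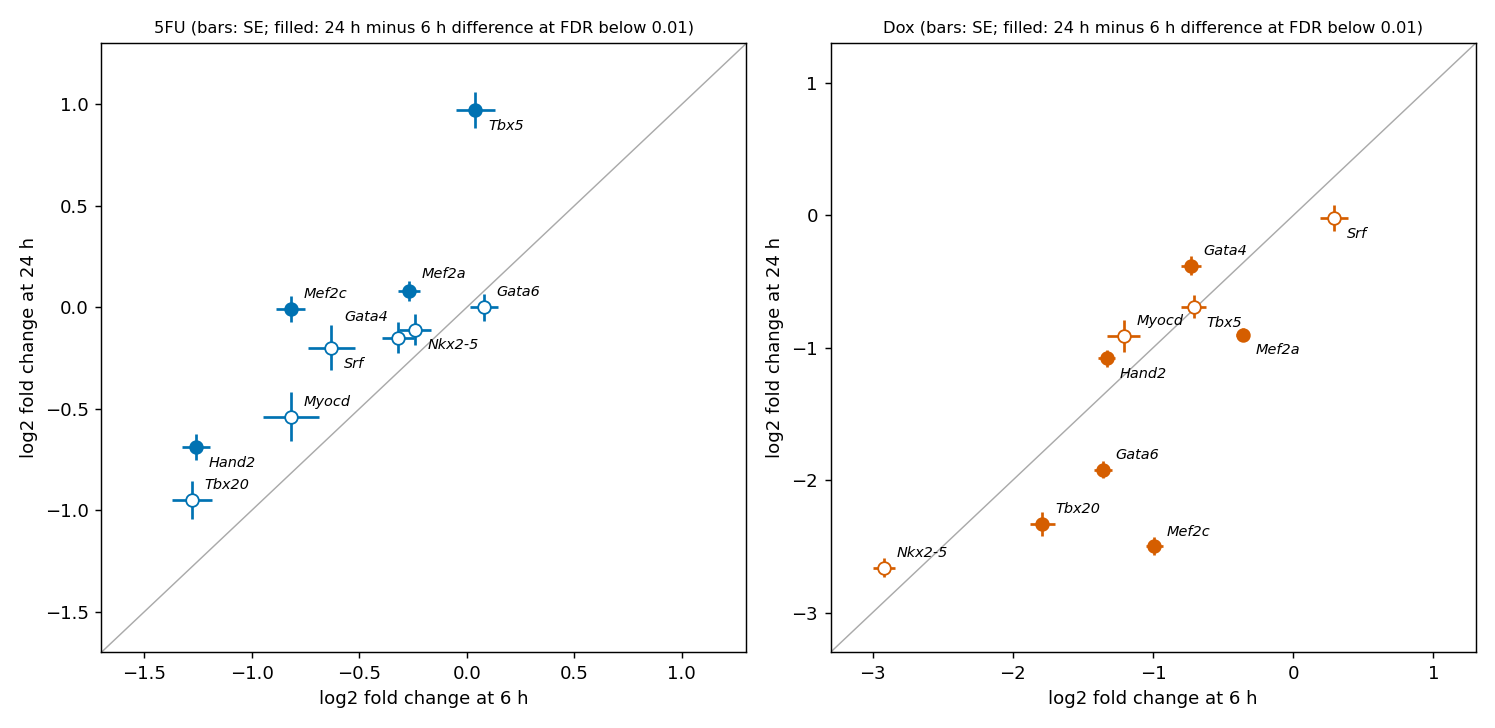
Log2 fold change at 6 hours (horizontal) and 24 hours (vertical) under 5FU and Dox with SE bars; the grey line marks equal values. Filled points are factors whose 24-hour minus 6-hour difference has an FDR below 0.01, with Mef2c 1.51 below the line under Dox and 0.80 above it under 5FU.

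Between drugs at 24 hours, Dox and Ace share their control and were compared library against library. Dox was lower than Ace for 9 factors and Srf did not pass (0.04 ± 0.10), when 80.6% of all genes passed in either direction. As lower, 5804 of the 14554 genes passed. Nkx2-5 had 38.3 to 42.6 CPM in Dox and 263 to 293 CPM in Ace, a log2 difference of -2.75 ± 0.075 (FDR 8.6e-42). The smallest of the 9 were Tbx5 (-0.26 ± 0.086, FDR 0.0047) and Gata4 (-0.24 ± 0.071, FDR 0.0017), and with RLE size factors both lost their call. That of Tbx5 was also lost without Ace library 2, 4, 6 or 7 or Dox library 1, 2 or 7, with FDR up to 0.051, and that of Gata4 without Ace library 4 or Dox library 3 or 6, with FDR up to 0.011. 5FU has its own control, so it was compared through the difference of the effects. The Dox effect was below the 5FU effect for 7 factors, and Gata4, Srf and Myocd did not pass. Of all genes 71.1% passed in either direction, and 5146 of the 14554 passed as lower. Here Nkx2-5 differed by -2.55 ± 0.10 (FDR 9.3e-32), Mef2c by -2.48 ± 0.093 (FDR 1.0e-33) and Tbx5 by -1.66 ± 0.12 (FDR 3.2e-19). The Ace effect was above the 5FU effect for Myocd (0.74 ± 0.17, FDR 0.00018), Tbx20 (0.62 ± 0.13, FDR 3.9e-05) and Hand2 (0.61 ± 0.088, FDR 5.4e-08), and below it for Tbx5 (-1.40 ± 0.12, FDR 9.8e-15) and Mef2c (-0.29 ± 0.089, FDR 0.0055), when 37.3% of all genes passed. This call of Mef2c was lost without 5FU library 1 or 3 (FDR up to 0.013) and with library totals alone (-0.22, FDR 0.053). The drugs were each given at 1 dose, and these doses differ, so the values belong to the doses used.

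The lists of related genes are read against the shares of all genes given above for each comparison. Under Dox those were 32.7% lower and 31.5% higher at 6 hours, and 41% lower and 40.4% higher at 24 hours. Other cardiac transcription factors were read from a list of 24, of which 23 were measured. Under Dox 15 were lower and 6 higher at 6 hours, with a median log2 fold change of -0.57, and 10 were lower and 8 higher at 24 hours, with a median of -0.13. The lower share was thus 65.2% at 6 hours, and at 24 hours 43.5%, near that of all genes. Irx4, the ventricular Iroquois factor, was at -1.83 at 6 hours and at -3.47 ± 0.082 (FDR 3.4e-45) at 24 hours. Tbx3, a T-box repressor of the conduction system, was at 1.86 and then 2.88 ± 0.11 (FDR 5.8e-35). At 24 hours Hand1, the relative of Hand2, was at 2.43 ± 0.12 and Gata5 at -2.36 ± 0.080. Tbx3 and Hand1 were thus higher at 24 hours, when Tbx5 and Hand2 were lower. Under 5FU 11 of the 23 were lower and 4 higher at 6 hours, and 13 lower and 4 higher at 24 hours, when 24.5% and 27.8% of all genes were lower, with Prdm16 at -1.98 ± 0.12 and then -1.21 ± 0.11. Under Ace 8 were lower and 3 higher at 6 hours and 9 lower and 2 higher at 24 hours, when 15.2% and 19.1% of all genes were lower. Mef2b, a further MEF2 gene, was higher under Ace, at 1.71 ± 0.25 and 1.16 ± 0.22. It was also higher under Dox at 6 hours (1.54 ± 0.24) and under 5FU at 24 hours (1.15 ± 0.26).

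Partners and cofactors of the 10 were listed as 28 genes, of which 25 were measured. Under Dox 14 were lower and 5 higher at 6 hours, and 12 were lower and 10 higher at 24 hours, with medians of -0.28 and -0.03. At 24 hours these were 48% and 40% of the list, near the shares of all genes. The largest at 24 hours were Ankrd1 (-3.69 ± 0.23), a stretch-responsive ankyrin repeat cofactor, Smyd1 (-3.05 ± 0.086), a muscle methyltransferase, Hdac9 (-2.83 ± 0.098), a repressor that binds MEF2 proteins, and Fhl2 (-2.60 ± 0.087), a LIM-domain cofactor of Srf. Hdac9 was also at -1.48 ± 0.099 under 5FU at 6 hours and at -0.66 ± 0.090 under Ace at 6 hours. Under 5FU 13 were lower and 3 higher at 6 hours, and 9 lower and 7 higher at 24 hours (36.0% and 28%, near 27.8% and 28% of all genes). Under Ace 7 were lower at each time, with 3 higher at 24 hours.

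The cardiac targets of these factors, 28 listed and 28 measured, were split at 6 hours under Dox, with 12 lower and 10 higher, 42.9% and 35.7% of the list, and a median of 0.05. At 24 hours 23 were lower and 3 higher, 82.1% and 10.7%, with a median of -2.43. Among them were Gja5 (-5.49 ± 0.16), which encodes connexin 40, Chrm2 (-4.78 ± 0.11), the muscarinic receptor of the heart, and Myh6 (-4.13 ± 0.11), the alpha myosin heavy chain. The target list shares genes with the cardiomyocyte markers, among them Myh6, Actc1, Ryr2 and Nppa, so the counts of these lists are not separate results. Lrrc10, a sarcomeric leucine-rich repeat gene, was at 0 in 5 of 7 Dox libraries at 6 hours against 13.9 to 24.7 CPM in DMSO2. Nppb went the other way at 6 hours under Dox (2.55 ± 0.32), with library 7 at the control level. Under 5FU 10 targets were lower and 4 higher at 6 hours, with a median of 0.01, and 17 were lower and 3 higher at 24 hours, 60.7% and 10.7% beside 27.8% and 28% of all genes. At 24 hours Gja5 was at -1.96 ± 0.13 and Nppa, the atrial natriuretic peptide gene, at 1.88 ± 0.17. Under Ace 8 were lower at 6 hours, and 13 lower and 2 higher at 24 hours, with Corin, the protease that processes natriuretic peptide, at -1.68 ± 0.16 at 24 hours.

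The targets of Srf were read as 2 lists. Of 18 contractile and cytoskeletal targets, 13 were higher and 3 lower under Dox at 6 hours with a median of 0.61, and 8 were higher and 5 lower at 24 hours with a median of -0.01. The higher share was 72.2% at 6 hours and, near that of all genes, 44.4% at 24 hours. Under 5FU 2 were higher and 7 lower at 6 hours and 4 and 12 at 24 hours, and under Ace 1 and 4, then 2 and 10. Under Dox Cnn1, calponin of smooth muscle, was at 1.83 ± 0.23 at 6 hours and 3.05 ± 0.25 at 24 hours. Myh11, smooth muscle myosin, was at 1.57 ± 0.12 and 2.69 ± 0.11. Mylk, of the same 18 targets, went the other way at 24 hours, at -2.43 ± 0.10. Cnn1 and Myh11 are also among the 7 smooth muscle markers, whose sum had a median of 2940 CPM under Dox and 1170 CPM in DMSO2 at 6 hours, with 1170 CPM in Dox library 7. At 24 hours these medians were 1490 and 918 CPM. Of the smooth muscle markers 4 were higher and 2 lower under Dox at 6 hours, and 3 were higher and 3 lower at 24 hours. The contractile and cytoskeletal list was higher for 10 of 18 genes in DMSO1 against DMSO2 at 6 hours, when 9.87% of all genes were higher. It was lower for 12 of 18 genes at 24 against 6 hours in the controls, when 31.9% of all genes were lower. Of 7 immediate early targets measured, 6 were higher under Dox at 6 hours and 7 at 24 hours, with a median of 1.83 at 24 hours, and Fos went from 3.29 ± 0.15 to 4.47 ± 0.15. Under 5FU 5 and then 3 of these 7 were higher, and under Ace 3 and then 4. The Srf transcript itself was at 0.29 and then -0.02 under Dox.

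**Figure D5:**
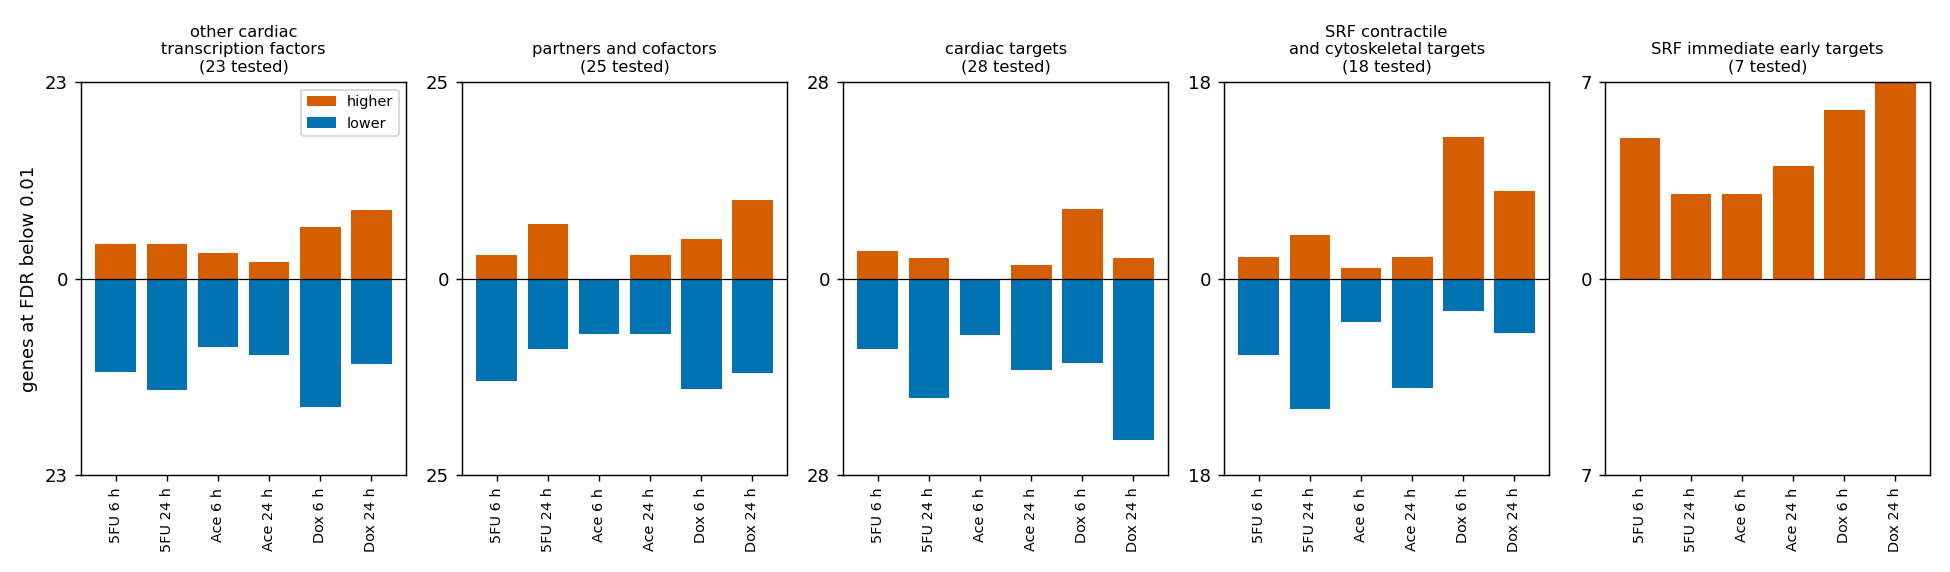
Number of genes of each list called higher (above 0) and lower (below 0) against the matched DMSO control at an FDR below 0.01, for 5FU, Ace and Dox at 6 and 24 hours; each axis ends at the number of genes tested. Cardiac targets under Dox go from 12 lower at 6 hours to 23 at 24 hours, and the 7 immediate early targets are called only as higher.

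The factors were then set beside all 9296 named genes with a mean of at least 10 CPM, as a description over 65 libraries that share drugs and cultures. Over all libraries the highest correlations of log2 CPM were 0.97 for Nkx2-5 with Dhx34, 0.97 for Tbx20 with Smg6, 0.97 for Mef2c with Agpat3, 0.96 for Gata6 with Pkdcc and Nkx2-5, 0.96 for Mef2a with Grk5, 0.95 for Hand2 with Cnbd2, 0.94 for Myocd with Myo18a, 0.92 for Gata4 with Trio and 0.89 for Tbx5 with Prune1. Srf had no gene above 0.79, which was Vcl, the gene of the adhesion protein vinculin. With the group means taken away, which leaves the spread between cultures of 1 group, Gata4 was most like Zyx (0.88), Myocd most like Rbm20 (0.87), a splicing factor of titin, Srf most like Jph2 (0.81), a junctional protein of the dyad, and Mef2a most like Smyd1 (0.73). Among the 45 pairs of the 10 factors the correlation ran from -0.46 to 0.96 with a median of 0.70 over all libraries, and from -0.26 to 0.71 with a median of 0.17 within groups. The highest within groups were Gata4 with Myocd and Tbx20 with Myocd, each 0.71, and Nkx2-5 with Hand2, 0.62.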

How the data were processed

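PolyA RNA of 65 libraries was sequenced in paired reads. The authors assigned reads to the rat Ensembl transcriptome with kallisto 0.46.0, used tximport to bring transcripts to Entrez genes, and dropped low-count genes. The values are the estimated counts as deposited, which are whole numbers for 14554 genes and were not normalized by the authors. Gene names, for names only, and promoter sequences came from RefSeq tables of GRCr8, and 14009 identifiers had a symbol. Strand was not given in the sources used here, so overlapping antisense transcripts could not be separated. The 10 factors and the gene lists were chosen with earlier results of these data known. Column names carry the group and no number, so libraries were numbered only as names. The 180 pairs of libraries within a group differed by at least 2.84 chi-square units per gene, where sampling alone gives 1, so none was treated as a duplicate.

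Counts were scaled with TMM factors (0.859 to 1.07) and fitted with edgeR 4.0.16 in R 4.3.3 (glmQLFit and glmQLFTest, 2-sided) in 1 model of 10 groups with 15 contrasts. A gene stayed in when any library (at least 1) held 10 counts or more, and 0 genes were lost by this. P-values were adjusted over all 14554 genes with Benjamini-Hochberg, and a gene was called at an FDR below 0.01. The authors used both 0.1 and 0.01 as thresholds. Intervals called 95% are the log2 fold change ± 2 SE. The SE is the absolute log2 fold change divided by the square root of F. CPM values use TMM-scaled totals, and correlations use log2 CPM with a prior count of 2. CPM is not scaled to gene length, so levels were not compared between genes. Genes named from a list were the up to 4 called with the largest absolute log2 fold change in a comparison; Nppb and Lrrc10 levels by library were chosen after their values were seen. The GATA site was searched as A or T, then GATA, then A or G. The script was tested on simulated data. Alternatives were DESeq2 1.42.0, RLE size factors, library totals alone, filterByExpr, no filter, only the compared groups, an FDR below 0.1, and leaving out each of 65 libraries in turn. The smallest library held 14332827 counts.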

Additional observations from a re-analysis of the deposited data

Results flagged for a closer look

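In 8 of 100 sets of 1 factor in 1 group, a single library stood apart from the rest of its group by Dixon's criterion, where chance alone gives about 1 in 20, or 5 in 100. These were Gata4 in Ace library 4 at 24 hours (228 CPM), Tbx5 in DMSO1 library 6 (19.2 CPM), Ace library 6 (17 CPM) and Dox library 4 (17.7 CPM) at 6 hours, Tbx20 and Mef2c in Ace library 3 at 6 hours (155 and 59.2 CPM), Hand2 in Ace library 6 at 6 hours (60.6 CPM) and Srf in DMSO1 library 4 at 24 hours (164 CPM). Ace libraries 3 and 6 at 6 hours each account for 2 of the 8.

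The effect of a drug at 24 hours differed from its effect at 6 hours, by a test of the difference itself, in 10 results. Under 5FU these were Tbx5 (0.93 on the log2 scale), Mef2c (0.80), Hand2 (0.57) and Mef2a (0.35), when 39.5% of all genes passed. Under Dox these were Mef2c (-1.51), Gata6 (-0.57), Tbx20 (-0.55), Mef2a (-0.54), Gata4 (0.34) and Hand2 (0.25), when 64.8% of all genes passed. The numbers of factors that passed were thus near the shares of all genes.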

How the results depend on the processing

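No value changed direction and passed in any alternative. The number of factors called was within 1.5 times the reported one in DESeq2, RLE size factors, library totals alone, filterByExpr, no filter and the compared groups only, for all 15 comparisons. An FDR below 0.1 gave 5 for Ace at 24 hours in place of 3, because Gata4 and Gata6 were added, when 7863 of all 14554 genes passed. With 1 library left out the count for Ace at 6 hours ran from 1 to 2, the lower value without Ace library 6 or DMSO2 library 4 or 6, which ended the call of Tbx5; the cause was not tested. The other counts ran from 7 to 8 (5FU at 6 hours), 9 to 10 (Dox at 6 hours), 3 to 4 (the controls at 6 hours), 6 to 7 (time), 4 to 6 and 5 to 7 (24 hours minus 6 hours under 5FU and Dox), 7 to 9 (Dox minus Ace) and 4 to 5 (Ace minus 5FU). Srf under Dox at 6 hours lost its call in 10 of 14 such fits, with values from 0.25 to 0.37. DESeq2 changed 1 of 150 calls, Tbx5 in Dox minus Ace (-0.21, FDR 0.016). Fitting the compared groups only ended 5 calls and added 6. No paired analysis was possible because the columns carry no replicate numbers. The lowest CPM of Tbx5 in any library was 12.4.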

Other observations

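The within-group similarity of the factors depended on the scaling. With library totals alone in place of TMM factors, the median correlation of the 45 pairs within groups was 0.29 in place of 0.17, and 13 pairs in place of 9 were above 0.5.

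Macrophage markers, used above only for time in the controls, and epicardial markers, not used above, were low in all groups. Their sums ran from 23 to 85.4 and from 9.5 to 29.4 CPM. Under Dox at 24 hours 7 of 7 macrophage markers were lower, with sums of 23 to 34.3 CPM against 62.6 to 85.4 CPM in DMSO2. The epicardial sums were 19.1 to 29.4 CPM under Dox and 15.5 to 21.5 CPM in DMSO2 at 24 hours, with 3 of 5 markers lower and 1 higher.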
